A study of Mus musculus with 12 samples.

Results

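The addition of the conjugate Ru-PD-L1 to doxorubicin was examined in 4 of the 12 tumour libraries of the series, namely the 2 libraries labelled R+X and the 2 labelled DOX. They were picked by the agent label alone, and no measured value entered the choice. All mice were C57BL/6J, 8 weeks old, and carried subcutaneous tumours of MC38, a colon carcinoma line of that strain. R+X mice were given Ru-PD-L1, whose dose in the combination is not stated. An injection of 14 µg of DOX beside the tumour followed after 6 hours. DOX mice received 14 µg of DOX (0.56 mg/kg) into the peritoneal cavity. Treatment was repeated every 3 days beginning on day 9, and tumours were collected on day 20. The drug route thus changed together with the conjugate, and the contributions of conjugate, route and injection beside the tumour cannot be told apart. The other groups used here, with 2 libraries each, were RP (20 µg Ru-PD-L1 alone, 0.8 mg/kg), Ctrl (PBS), R+D (Ru-PD-L1 and then 14 µg of the DOX prodrug DPD beside the tumour) and DPD (14 µg alone, 0.56 mg/kg). R+X was read as the combination with DOX because the letter X occurs in no other drug name. If R+X and R+D stood for each other, the R+X values below would be those of the prodrug combination.

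Doxorubicin is an anthracycline that slips between DNA bases and traps topoisomerase II on broken DNA, which activates p53 and DNA repair and can kill dividing cells. PD-L1, encoded by Cd274, is a membrane ligand that restrains T cells through the receptor PD-1, and interferon gamma released by T cells induces it on tumour and myeloid cells. Ru-PD-L1 joins a PD-L1-targeted antibody to a catalyst meant, per the series title, to be used with a DOX prodrug, so its pairing with DOX itself is a combination in which no prodrug is present.

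Total counts were 47462762 and 52359825 in the R+X libraries and 50741609 and 49733254 in the DOX libraries, within the 46547114 to 56462259 of all 12. The 2 R+X libraries were the most alike of any group and the 2 DOX libraries the least alike. A 2-fold or larger difference between the replicates was seen for 1766 of 19525 genes (9.04%) in R+X and 3964 (20.3%) in DOX, against 10.1% to 11.5% in the other groups. Pearson correlations of log2 CPM (counts scaled to a common library size) were 0.983 between the R+X libraries and 0.968 between the DOX libraries. DOX replicate 2 correlated with the R+X libraries at 0.982 and 0.981, above its correlation with DOX replicate 1, and DOX replicate 1 was nearest to Ctrl replicate 2 (0.982). A gene's fold change that moved by over 1.5 times without 1 DOX library is therefore also given without that library, and list medians are plotted with and without each. Epithelial and colon carcinoma markers were uneven in these tumours. Over the 12 libraries together Cdx2 had 0 counts, Krt8 24 and Krt18 27. Cdh1 had 8498 counts and Lgals4 6083, with at least 9.90 and 7.35 CPM in every library.

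No gene passed in the comparison of R+X with DOX. The edgeR quasi-likelihood test called 0 genes higher and 0 lower among 19525 tested (0% each; Benjamini-Hochberg adjusted p under 0.05), and the smallest adjusted p was 0.965. At an unadjusted p under 0.05 it had 546 genes (2.8%), of which 342 (1.75%) were higher in R+X and the others (1.04%) lower. DESeq2 called 1 gene higher and 2 lower, the lower ones being Alas2 and Hbb-bt (DESeq2 adjusted p = 0.0224 and 0.000319), and limma-voom called 0. The gene called higher by DESeq2, the T cell receptor segment Trbv31, had 0.0414 and 4.80 CPM in R+X and 0 CPM in both DOX libraries, so a single library carried it. For 10861 genes (55.6%) the 95% interval of the difference lay within a 2-fold change either way, and so did 8984 of the 10239 genes (87.7%) with a mean of at least 10 CPM over the 4 libraries. The fit estimates the spread of a gene from all 12 libraries, although the DOX libraries were further apart than those of other groups. These intervals and the standard errors below may therefore be too narrow for this comparison. In simulated data of the same size the test picked up 16.7% of genes given a 2-fold change, 60.5% at 4-fold and 73.0% at 8-fold. Each simulated gene had the same spread in all groups. The simulation thus left out the wider spread between the DOX libraries, and these shares may be too high for R+X against DOX. Every fold change of R+X against DOX below is therefore a value that did not pass, with an edgeR adjusted p of 0.965 or more. Levels are TMM-scaled CPM, which compare a gene between libraries and not with other genes.

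The genes of smallest p were those of red blood cells, all lower in R+X. Haemoglobin is built from alpha chains (Hba-a1, Hba-a2) and beta chains (Hbb-bs, Hbb-bt), and Alas2 is the erythroid enzyme that begins haem synthesis. Hbb-bs had 12.3 and 16.9 CPM in the R+X libraries, against 110 and 125 CPM in the DOX libraries. Hba-a1 had 9.91 and 15.9 CPM in R+X and 118 and 83.8 CPM in DOX. Both R+X libraries lay far below both DOX libraries in each gene, with no overlap. Hbb-bt stood at 6.54 and 9.62 CPM in R+X and 55.1 and 67.4 CPM in DOX, and Hba-a2 at 7.76 and 12.7 CPM in R+X and 83.4 and 68.7 CPM in DOX. Alas2 had 0.642 and 0.249 CPM in R+X and 2.36 and 2.51 CPM in DOX, so that all 5 genes were lower in both R+X libraries. The log2 fold changes of these 5 genes were -3.0 ± 0.62 for Hbb-bs, -2.97 ± 0.60 for Hba-a1, -2.92 ± 0.59 for Hbb-bt, -2.90 ± 0.60 for Hba-a2 and -2.45 ± 0.49 for Alas2 (± standard error, n = 2 libraries each, edgeR unadjusted p = 0.000468 for Alas2 to 0.000632 for Hba-a2). Summed over the 4 globin genes, the level was 36.5 and 55.1 CPM in R+X and 366 and 345 CPM in DOX, a log2 difference of -2.96 ± 0.60 or 7.76-fold lower in R+X (edgeR unadjusted p = 0.000528). In these pieces of tissue, fewer cells of a type and less RNA per cell cannot be told apart. Whether a different amount of blood in the samples contributed was not tested.

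Of the 10 red blood cell genes listed, 9 were in the table and 7 were tested. All 7 had a negative fold change with a median of -2.92, and in 6 the groups did not overlap. They include the globin genes and Alas2, picked above for a small p without overlap. The median and these counts therefore largely restate that choice. Of all genes tested, 50.9% had a negative and 48.9% a positive fold change, 13.5% were lower in R+X and 15.3% higher without overlap, and the median was -0.01. Slc4a1, the anion exchanger of the red cell membrane, had 17 counts over the 12 libraries together. Bpgm, an enzyme of red cell glycolysis that other tissues share, had overlapping values of 9.85 and 8.40 CPM in R+X and 12.7 and 9.11 CPM in DOX. The list median stayed between -3.26 and -2.67 when any 1 of the 4 libraries was left out. That it kept its sign follows largely from the same choice.

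The globin sum also had a negative difference in both other comparisons of conjugate groups, which share no library with R+X and DOX. The globin sum was 50.3 and 86.9 CPM in RP and 221.8 and 258.5 CPM in Ctrl, a log2 difference of -1.81 ± 0.57 (edgeR adjusted p = 0.166). It was 21.3 and 32.4 CPM in R+D and 123 and 24.8 CPM in DPD, where the ranges overlapped and the log2 difference was -1.47 ± 0.57 (edgeR adjusted p = 1). DOX replicates 1 and 2 held the highest sums of the 12 libraries. The difference in R+X exceeded that in RP by -1.15 ± 0.79 log2 units and that in R+D by -1.49 ± 0.80 (edgeR adjusted p = 0.998 and 1, unadjusted p = 0.176 and 0.0894).

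**Figure D1:**
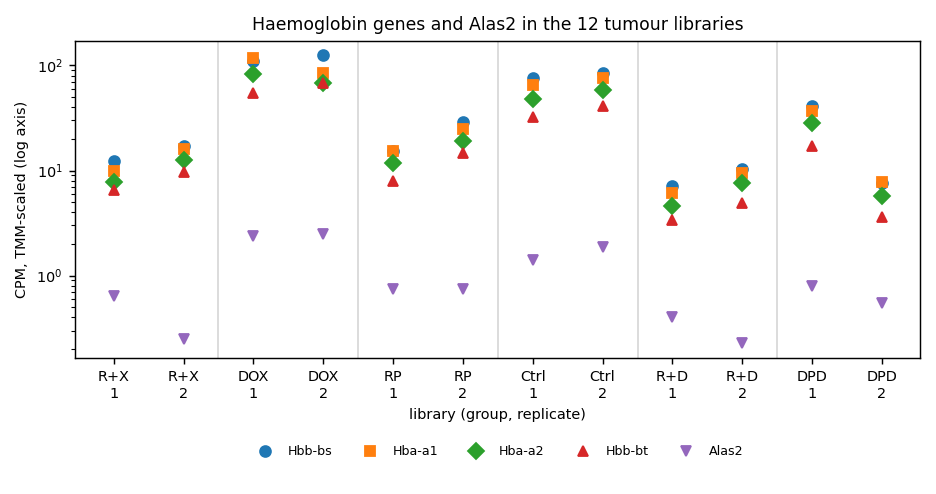
TMM-scaled CPM (log axis) of Hbb-bs, Hba-a1, Hba-a2, Hbb-bt and Alas2 in each of the 12 libraries, 1 point per gene and library, with each conjugate group left of its partner without conjugate. The R+X points lie below the DOX points for all 5 genes, and RP lies below Ctrl, while DPD replicate 2 sits as low as the R+D libraries.

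The promoters of 3 of these genes are shown because the globin genes lay lower together while their counts cannot be kept fully apart. The transcripts of Hba-a1 and Hba-a2 agreed at 537 of 538 aligned bases (99.8%), so reads of one could be counted for the other, and their promoter windows were identical over 297 bases. Hbb-bs and Hbb-bt agreed at 93.0% of aligned transcript bases and 73.6% of aligned promoter bases. On GRCm38, Hba-a1 lies on chromosome 11 from 32283672 to 32284486 and Hba-a2 from 32296492 to 32297310, Hbb-bs on chromosome 7 from 103826523 to 103827928 and Hbb-bt from 103812524 to 103813923, and Alas2 on chromosome X from 150547417 to 150570622, all annotated as protein coding. Each window below, from RefSeq (GRCm38.p6), holds 250 bases before the start site and 50 from it, 5′ to 3′ on the gene's strand. Capitals mark GATAAG, a core recognised by the erythroid factor GATA1. They also mark ATATAA, an element of the kind bound by the general transcription machinery just ahead of the start. In Hbb-bs they mark CCACACCC, the box bound by the erythroid factor KLF1. These letters were chosen after the sequences were read.
Hba-a1, chr11:32283422-32283721, plus strand: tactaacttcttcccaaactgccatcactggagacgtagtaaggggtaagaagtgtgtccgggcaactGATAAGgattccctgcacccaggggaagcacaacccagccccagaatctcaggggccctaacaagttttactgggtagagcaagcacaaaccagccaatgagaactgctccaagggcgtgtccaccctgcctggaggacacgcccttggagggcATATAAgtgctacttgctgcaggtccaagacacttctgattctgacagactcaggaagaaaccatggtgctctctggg
Hbb-bs, chr7:103827879-103828178, minus strand: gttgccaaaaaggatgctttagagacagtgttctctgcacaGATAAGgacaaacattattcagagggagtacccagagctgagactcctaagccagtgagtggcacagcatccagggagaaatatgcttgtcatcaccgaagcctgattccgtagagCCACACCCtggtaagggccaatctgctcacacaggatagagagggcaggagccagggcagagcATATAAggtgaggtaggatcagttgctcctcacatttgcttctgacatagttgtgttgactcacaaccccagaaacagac
Hbb-bt, chr7:103813874-103814173, minus strand: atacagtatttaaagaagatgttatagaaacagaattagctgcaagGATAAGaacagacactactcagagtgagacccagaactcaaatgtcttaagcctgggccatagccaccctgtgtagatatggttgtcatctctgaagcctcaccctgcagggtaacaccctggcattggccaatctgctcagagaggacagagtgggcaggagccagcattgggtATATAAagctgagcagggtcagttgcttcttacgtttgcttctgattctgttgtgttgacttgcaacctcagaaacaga
Searched on both strands, the first of them (GATAAG) was found in 4 of the 5 windows (Alas2 had none), and in 7.44% of 32851 promoter windows of the same length. The choice of letters after reading partly fixed the first count, and the near-identical Hba-a1 and Hba-a2 windows both enter it. The shares among all windows are therefore given for scale and are no test. The second (ATATAA) was in 4 of 5 windows, with 9.82% among all windows, and the letters CCACACCC in Hbb-bs alone, with 3.56% among all windows. Only these exact letters were searched. Other forms of the GATA1 and KLF1 sites, in Alas2 or elsewhere, were not counted. The second match began 28 bases before the start site in Hba-a1, 30 in Hbb-bs and 29 in Hbb-bt, and 0 matches of different motifs overlapped. Such a match describes these letters and shows no binding in these tumours.

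Beyond the red cell genes, 3 named genes of smallest p were lower in R+X. Cxcl1, a chemokine that draws neutrophils, had 2.19 and 2.03 CPM in R+X and 4.87 and 10 CPM in DOX, a log2 fold change of -1.82 ± 0.45. Mmp9, a gelatinase that degrades matrix, had 22.3 CPM in each R+X library, against 56.0 and 40.1 CPM in the DOX libraries (-1.11 ± 0.28). Slc25a47, a mitochondrial carrier known from liver, had 3.81 and 3.23 CPM in R+X and 8.25 and 6.74 CPM in DOX (-1.09 ± 0.28). None of these pairs overlapped, and the unadjusted p ran from 0.00227 for Cxcl1 to 0.00277 for Slc25a47. On GRCm38, Cxcl1 lies on chromosome 5 from 90891245 to 90893121 and Mmp9 on chromosome 2 from 164940326 to 164955850, both protein coding. The Cxcl1 value was -1.21 without DOX replicate 2, which held the 10 CPM, and -2.24 without DOX replicate 1. Mmp9 was also lower in RP (17.3 and 23.8 CPM) than in Ctrl (42.4 and 46.4 CPM), whereas Cxcl1 overlapped between RP (2.71 and 4.13 CPM) and Ctrl (3.63 and 2.53 CPM).

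In the other direction the 8 named genes were Apol6, Chil3, Irf4, Apol10b, Socs2, Aldh1l2, Pygl and Anxa8. Chil3, a chitinase-like protein secreted by myeloid cells, had 22.3 and 71.8 CPM in R+X and 14.6 and 6.76 CPM in DOX, a log2 fold change of 2.14 ± 0.53. R+X replicate 2 carried most of it, and the value was 1.05 without R+X replicate 2 and 2.75 without R+X replicate 1. Irf4, a transcription factor of activated lymphocytes and some dendritic cells, had 1.51 and 2.96 CPM in R+X and 0.816 and 0.587 CPM in DOX (1.67 ± 0.43). Apol6 of the apolipoprotein L family had 22.8 and 12.2 CPM in R+X and 8.14 and 7.11 CPM in DOX (1.20 ± 0.28). Its relative Apol10b had 10.1 and 9.01 CPM in R+X and 5.43 and 6.4 CPM in DOX (0.69 ± 0.18). The R+X libraries lay above the DOX libraries in all 4. The value of Apol6 was 0.68 without R+X replicate 1 and that of Irf4 1.09 without R+X replicate 2.

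On GRCm38, Chil3 lies on chromosome 3 from 106147554 to 106167564, Irf4 on chromosome 13 from 30749233 to 30766981 and Apol6 on chromosome 15 from 77045050 to 77057108, all protein coding. Relatives of Apol10b lie close in sequence, so its counts may hold reads of theirs.

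More even values between replicates were seen in the remaining 4. Socs2, a feedback inhibitor of cytokine receptors that signal through STAT proteins, had 9.52 and 9.24 CPM in R+X and 4.76 and 5.35 CPM in DOX (0.89 ± 0.23). Aldh1l2, the mitochondrial enzyme that oxidises formyl-tetrahydrofolate, had 67.8 and 60.4 CPM in R+X and 28.4 and 42.4 CPM in DOX (0.86 ± 0.23). Pygl, liver-type glycogen phosphorylase, had 13.6 and 12.4 CPM in R+X and 7.34 and 8.87 CPM in DOX (0.68 ± 0.19). Anxa8, a calcium-dependent membrane-binding annexin, had 102 and 109 CPM in R+X and 78.9 and 74.0 CPM in DOX (0.47 ± 0.13). The unadjusted p of the 8 genes ran from 0.00161 for Apol6 to 0.00433 for Anxa8. Leaving out any 1 of the 4 libraries left the sign of all 16 named genes as it was. That follows from choosing genes whose groups do not overlap and is no separate support.

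**Figure D2:**
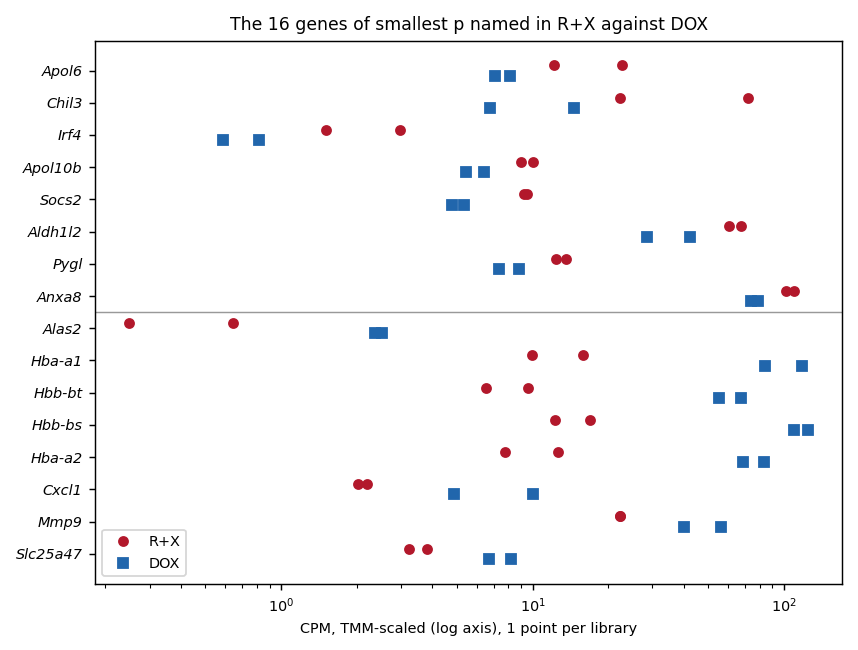
TMM-scaled CPM (log axis) of the 8 genes higher and the 8 lower in R+X with the smallest p, groups not overlapping and a mean of at least 1 CPM, 1 point per library (circles R+X, squares DOX). By the choice of genes the groups never overlap; the globin genes are furthest apart and Chil3 has the widest R+X range.

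The target of the conjugate and the genes of its axis did not pass either. Cd274, which encodes PD-L1 and lies on chromosome 19 from 29362107 to 29388095 (GRCm38), had 26.9 and 24.7 CPM in R+X and 14.0 and 24.1 CPM in DOX, a log2 fold change of 0.44 ± 0.27 (95% interval -0.16 to 1.04). The groups were separated by less than the spread between the DOX libraries, and the value was 0.10 without DOX replicate 1 and 0.88 without DOX replicate 2. Pdcd1lg2, the second ligand, overlapped at 1.95 and 3.18 CPM in R+X and 2.25 and 1.09 CPM in DOX. Pdcd1, which encodes the receptor PD-1, overlapped at 3.62 and 1.59 CPM in R+X and 2.51 and 2.23 CPM in DOX (0.13 ± 0.37, adjusted p = 0.979 in edgeR), with 0.23 without DOX replicate 1, 0.05 without DOX replicate 2 and -0.58 without R+X replicate 1. The inhibitory receptor genes Lag3 (-0.17 ± 0.31, but 0.19 without DOX replicate 1 and -0.46 without DOX replicate 2) and Ctla4 (0.51 ± 0.63, but -0.32 without R+X replicate 1) overlapped too, and Havcr2, which encodes TIM-3, was at 8.55 and 12.2 CPM in R+X and 7.48 and 7.31 CPM in DOX. Of the 19 inhibitory checkpoint genes tested, 16 had a positive fold change, with a median of 0.26. Without overlap 7 (36.8%) were higher and 1 (5.26%) lower, against 15.3% and 13.5% of all genes tested.

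T cell genes separated the R+X libraries from each other. Cd8a, the coreceptor of cytotoxic T cells, had 6.99 and 3.10 CPM in R+X and 4.92 and 4.43 CPM in DOX, and Cd4, the helper coreceptor, had 1.18 and 0.631 CPM in R+X and 0.926 and 1.48 CPM in DOX. Both DOX values fell inside the R+X range for Cd8a. Cd3e, a subunit of the T cell receptor complex, had 3.37 and 2.05 CPM in R+X and 1.63 and 1.78 CPM in DOX (0.66 ± 0.36, but 0.26 without R+X replicate 1). Of 22 T cell markers tested, 18 had a positive fold change with a median of 0.41, yet the median was -0.12 without R+X replicate 1 and 0.66 without R+X replicate 2. The constant segments Trbc1 and Trbc2 had 0 counts in all libraries and Trac 7, so they carried no information. Foxp3, the factor that defines regulatory T cells, overlapped at 1.06 and 0.803 CPM in R+X and 0.926 and 0.992 CPM in DOX.

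Effector genes were uneven within the DOX group as well, their summed level being 158 and 139 CPM in R+X and 157 and 90.3 CPM in DOX. Prf1, which encodes the pore-forming perforin, had 13.6 and 11.6 CPM in R+X and 9.68 and 6.56 CPM in DOX (0.63 ± 0.38, and 0.38 without DOX replicate 2), and Gzmb, a protease that perforin delivers into target cells, overlapped at 10.7 and 7.27 CPM in R+X and 7.70 and 6.13 CPM in DOX. Gzmk was listed at 0.269 and 0.0383 CPM in R+X and at 0 in both DOX libraries. Ifng itself, the ligand of the interferon gamma response, overlapped at 0.807 and 0.574 CPM in R+X and 1.08 and 0.385 CPM in DOX (-0.08 ± 0.70). It was 0.84 without DOX replicate 1 and -0.65 without DOX replicate 2. Among 21 cytotoxic effector genes, 18 had a positive fold change (median 0.23) and 7 (33.3%) were higher and 0 lower without overlap. Natural killer cell markers had a median of -0.16, with 4 of 14 higher and 4 lower without overlap (28.6% each). The shares of all genes tested were 15.3% higher and 13.5% lower. Ncr1, an activating receptor of natural killer cells, had 0.166 and 0.210 CPM in R+X and 0.397 and 0.709 CPM in DOX.

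Genes induced by interferon gamma leaned upward as a list although the ligand did not. Of 36 tested, 35 had a positive fold change, the median was 0.37, and 11 (30.6%) were higher in R+X and 0 lower without overlap. Of all genes tested, 15.3% were higher and 13.5% lower without overlap. The log2 fold changes ran up to 1.18. Ciita, the master activator of MHC class II genes, had 19.8 and 12.2 CPM in R+X and 9.37 and 9.11 CPM in DOX (0.79 ± 0.24, unadjusted p = 0.00681, and 0.40 without R+X replicate 1). Serpina3g, a serine protease inhibitor induced by interferon, had 60.2 and 53 CPM in R+X and 36.3 and 43.5 CPM in DOX (0.50 ± 0.16). Gbp4, a guanylate-binding protein that acts against intracellular pathogens, had 71.8 and 43.0 CPM in R+X and 23.1 and 38.0 CPM in DOX (0.91 ± 0.36, but 0.60 without DOX replicate 1 and 0.49 without R+X replicate 1). In these 3 genes both R+X libraries were above both DOX libraries. Serpina3g and Gbp4 have close copies in the genome, whose reads may be split or shared. The chemokine Cxcl9, which attracts activated T cells, overlapped at 62.9 and 42.8 CPM in R+X and 29.5 and 45.1 CPM in DOX. The list median was 0.12 without R+X replicate 1, 0.52 without R+X replicate 2, 0.27 without DOX replicate 1 and 0.65 without DOX replicate 2, so that DOX replicate 2 and R+X replicate 1 moved it most and it stayed positive.

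Antigen presentation genes had different medians by class, and both medians moved with the DOX library used. For MHC class I the median over 23 genes was -0.02, with H2-K1, a heavy chain, at 1283 and 1189 CPM in R+X and 1574 and 957 CPM in DOX, and B2m, the shared light chain, at 1516 and 1424 CPM in R+X and 1660 and 1490 CPM in DOX. For MHC class II the median over 12 genes was 0.22, and 10 had a positive fold change. Without overlap 4 (33.3%) were higher and 0 lower, against 15.3% and 13.5% of all genes tested. H2-Aa, a class II chain, had 86.3 and 89.9 CPM in R+X and 83.3 and 64.3 CPM in DOX, and Cd74, the invariant chain, 569 and 615 CPM in R+X and 561 and 434 CPM in DOX. The class II median was -0.08 without DOX replicate 2 and 0.47 without DOX replicate 1. The class I median was -0.28 without DOX replicate 2 and 0.33 without DOX replicate 1.

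Type I interferon genes leaned the other way. Of 30 tested, 25 had a negative fold change with a median of -0.22. Among the 30, 6 (20%) were lower and 0 higher without overlap, against 13.5% and 15.3% of all genes tested. Ifit3, an antiviral protein, had 24.4 and 17.7 CPM in R+X and 30.1 and 37.1 CPM in DOX (-0.68 ± 0.39). Usp18, which dampens the type I receptor, had 10.7 and 9.58 CPM in R+X and 13.3 and 16.5 CPM in DOX. Rsad2, which encodes the antiviral enzyme viperin, was high in DOX replicate 2 alone, at 10 and 9.6 CPM in R+X and 9.75 and 23.6 CPM in DOX. Without DOX replicate 2 the list median was 0.01.

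**Figure D3:**
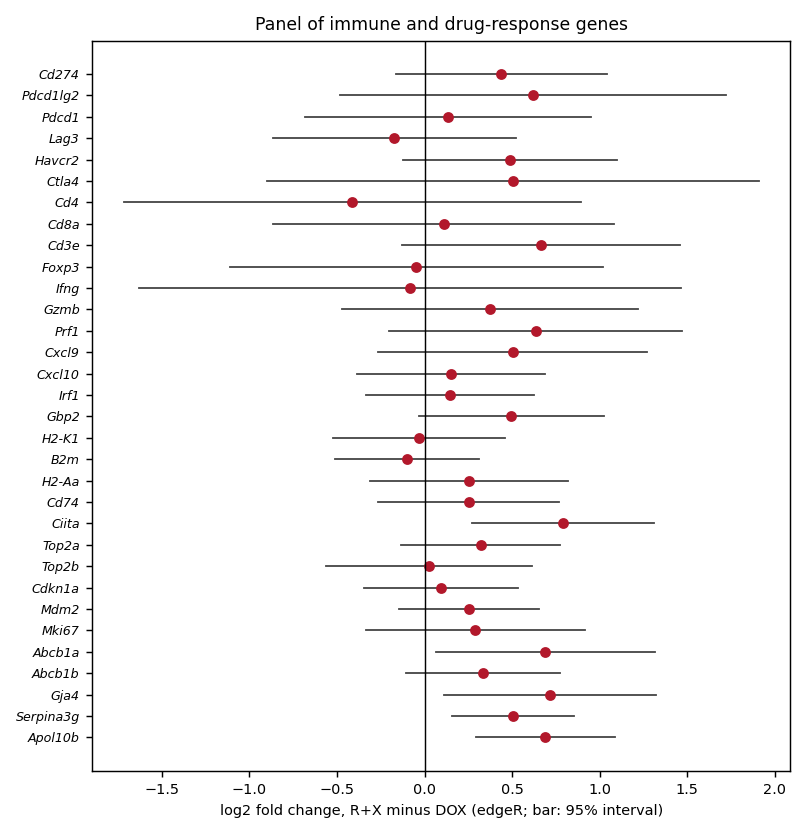
log2 fold change R+X minus DOX with its 95% interval (edgeR, 2 libraries each) for a panel of immune and drug-response genes. Most intervals cross 0; those of Ciita, Abcb1a, Gja4, Serpina3g and Apol10b lie above it before adjustment, and 0 genes passed after adjustment.

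Myeloid markers differed gene by gene. Itgam, the integrin CD11b of myeloid cells, had 69.9 and 72.3 CPM in R+X and 35.9 and 49.6 CPM in DOX (0.73 ± 0.27). Mrc1, the mannose receptor of tissue macrophages, had 48.5 and 51.2 CPM in R+X and 30.3 and 42.4 CPM in DOX (0.46 ± 0.24, but 0.24 without DOX replicate 1 and 0.72 without DOX replicate 2). Both were higher in R+X without overlap, but the median of 24 macrophage markers was -0.10. It was 0.23 without DOX replicate 1. Ccr7, the homing receptor of migratory dendritic cells, had 3.27 and 1.82 CPM in R+X and 1.37 and 0.871 CPM in DOX (1.18 ± 0.45, but 0.70 without R+X replicate 1). Together with Irf4, 7 of 18 dendritic cell genes (38.9%) were higher and 1 (5.56%) lower without overlap, with a median of 0.31. Among neutrophil genes, S100a8 had 1.43 and 0.612 CPM in R+X and 0.860 and 3.06 CPM in DOX, and the median of 14 genes was -0.14. Of 28 chemokines, 6 (21.4%) were higher and 7 (25%) lower without overlap (median 0.07). Over all genes tested these shares were 15.3% and 13.5%. Nfkbia, the inhibitor of NF-κB and one of its targets, was 101 and 97.7 CPM in R+X and 136 and 129 CPM in DOX (-0.42 ± 0.16).

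Genes tied to the action of doxorubicin are given in the order of drug target, transport, damage response and cell division. Top2a, the topoisomerase II of dividing cells, had 807 and 708 CPM in R+X and 510 and 703 CPM in DOX (0.32 ± 0.20), so that R+X replicate 2 and DOX replicate 2 were nearly level. The fold change of Top2a was 0.11 without DOX replicate 1 and 0.57 without DOX replicate 2. Top2b, the form of resting cells, overlapped at 137 and 138 CPM in R+X and 94.0 and 176 CPM in DOX. Abcb1a, a P-glycoprotein that pumps doxorubicin out of cells, had 7.64 and 5.91 CPM in R+X and 4.15 and 4.25 CPM in DOX (0.69 ± 0.28, unadjusted p = 0.0338). Its paralogue Abcb1b, also an efflux pump, had 82.5 and 72.9 CPM in R+X and 50.5 and 72.7 CPM in DOX (0.33 ± 0.20). Its value was 0.10 without DOX replicate 1 and 0.62 without DOX replicate 2. Cbr3, a carbonyl reductase of the family that reduces anthracyclines, had 3.77 CPM in both R+X libraries and 7.45 and 5.85 CPM in DOX. Over 20 transport and metabolism genes the median was -0.09.

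The p53 targets were even, with 15 of 30 positive, a median of -0.01 and 4 each way without overlap. That was 13.3% each way, against 15.3% higher and 13.5% lower over all genes tested. Cdkn1a, which encodes the cell cycle brake p21, overlapped at 89.2 and 93.4 CPM in R+X and 105 and 65.9 CPM in DOX (0.09 ± 0.20), with 0.47 without DOX replicate 1 and -0.21 without DOX replicate 2. Mdm2, the ligase that degrades p53, overlapped at 51.0 and 61.0 CPM in R+X and 41.6 and 52.2 CPM in DOX (0.25 ± 0.18), with 0.10 without DOX replicate 1 and 0.43 without DOX replicate 2. Phlda3, a p53-induced inhibitor of AKT, had 135 and 136 CPM in R+X and 286 and 146 CPM in DOX, so that its log2 fold change of -0.67 ± 0.30 was -0.11 without DOX replicate 1 and -1.08 without DOX replicate 2.

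DNA repair genes were mostly higher in R+X by small amounts. Of 35 tested, 27 had a positive fold change with a median of 0.23, and 15 (42.9%) were higher and 1 lower without overlap. Of all genes tested, 15.3% were higher and 13.5% lower without overlap. Fancd2, a Fanconi anaemia protein that acts at crosslinks, had 35.3 and 30.2 CPM in R+X and 18.0 and 27.2 CPM in DOX (0.54 ± 0.23, but 0.27 without DOX replicate 1 and 0.86 without DOX replicate 2). Fanca of the same pathway had 94.8 and 91.4 CPM in R+X and 69.3 and 74.2 CPM in DOX (0.38 ± 0.17). Rad54l, a motor of homologous recombination, had 34.4 and 31.3 CPM in R+X and 26.5 and 25.3 CPM in DOX (0.34 ± 0.15). Both R+X libraries lay above both DOX libraries in the 3 genes. The list median stayed positive without any 1 of the 4 libraries, from 0.14 without DOX replicate 1 to 0.29 without R+X replicate 2. Rrm2, which makes deoxynucleotides for replication, had 145 and 126 CPM in R+X and 97.8 and 103 CPM in DOX (0.43 ± 0.15), and 33 of 41 cell cycle genes had a positive fold change (median 0.12). The proliferation marker Mki67 overlapped at 375 and 332 CPM in R+X and 211 and 367 CPM in DOX. Apoptosis regulators had a median of -0.06 over 27 genes, with 0 higher and 2 (7.41%) lower without overlap.

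Ribosomal protein genes lay on one side throughout, and a single DOX library carried them. All 34 had a negative fold change with a median of -0.42, and 10 (29.4%) were lower without overlap, against 13.5% of all genes. Rps19, a small-subunit protein, had 675 and 780 CPM in R+X and 1547 and 810 CPM in DOX (-0.70 ± 0.35). Rps14 had 1160 and 1370 CPM in R+X and 2395 and 1701 CPM in DOX (-0.70 ± 0.35). Without DOX replicate 1 the values were -0.15 for Rps19, which was -1.09 without DOX replicate 2, and -0.43 for Rps14. DOX replicate 1 was the highest of the 4 libraries in both genes. The mean log2 CPM of the 34 genes was 9.83 and 9.97 in R+X and 10.72 and 9.76 in DOX. Without DOX replicate 1 the median was 0.07, and without DOX replicate 2 it was -0.83. Oxidative phosphorylation genes followed the same course, with 27 of 30 negative and a median of -0.22, against 0.12 without DOX replicate 1 and -0.51 without DOX replicate 2. Cox4i1, a subunit of cytochrome c oxidase, had 261 and 315 CPM in R+X and 580 and 273 CPM in DOX.

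DOX replicate 1 also differed from DOX replicate 2 with gene length, taken as all annotated exon bases of a gene, each counted once. Across 16252 genes with a length, the Spearman correlation of the difference DOX replicate 1 minus DOX replicate 2 with length was -0.40, against 0.06 between the R+X libraries. The correlation of R+X minus DOX with length was 0.27, and it was -0.17 without DOX replicate 1 and 0.39 without DOX replicate 2. After the length trend was taken out, the median of the ribosomal protein genes was -0.26, of the oxidative phosphorylation genes -0.08, of the interferon gamma genes 0.39 and of the red cell genes -2.69. These are correlations across genes, which are not independent replicates. What set the DOX libraries apart was not tested.

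**Figure D4:**
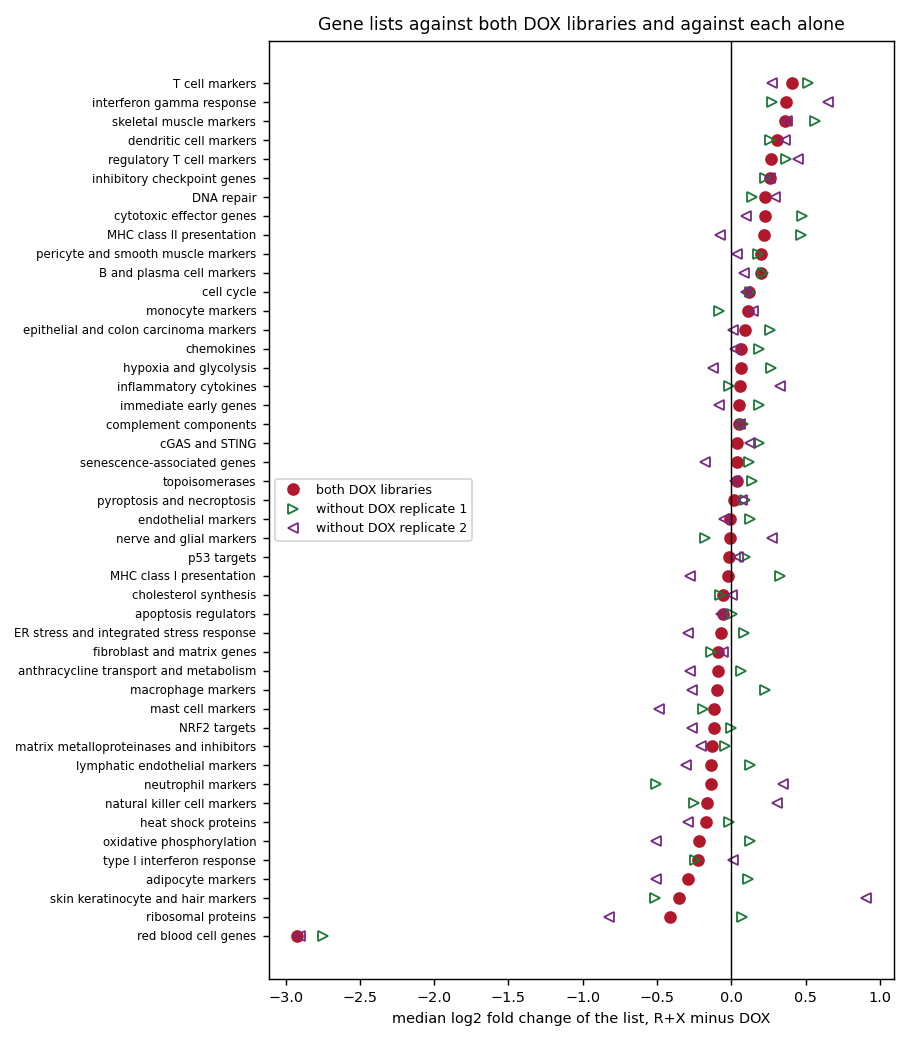
Median log2 fold change R+X minus DOX of each gene list with both DOX libraries (filled circles) and with DOX replicate 1 or 2 left out (open triangles). Ribosomal protein and oxidative phosphorylation genes change side with the DOX library used. Red cell genes stay near -2.9, but most were picked for groups without overlap, so that they keep their side is no separate support. DNA repair genes stay above 0, as do the interferon gamma and dendritic cell lists among others.

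Stress and metabolic lists were near even or shared that dependence. Heat shock genes had 13 of 14 negative values (median -0.17, but -0.01 without DOX replicate 1), with Dnaja1, a cochaperone, at 129 and 126 CPM in R+X and 169 and 156 CPM in DOX. Targets of NRF2, the factor of the oxidative stress response, had a median of -0.11, and Hmox1, the haem-degrading oxygenase among them, had 49.3 and 58.9 CPM in R+X and 94.0 and 60.8 CPM in DOX. Hypoxia and glycolysis genes had a median of 0.06 over 32 genes. Of them, 8 (25%) were higher and 2 (6.25%) lower without overlap, against 15.3% and 13.5% of all genes tested. Slc2a3, a high-affinity glucose transporter, had 2.75 and 2.81 CPM in R+X and 1.12 and 1.38 CPM in DOX (1.15 ± 0.41). Hk2, which phosphorylates glucose, had 67.0 and 71.6 CPM in R+X and 53.2 and 48.3 CPM in DOX (0.45 ± 0.20), while Car9, a hypoxia-induced carbonic anhydrase, had 23.7 and 26.7 CPM in R+X and 39.9 and 31.3 CPM in DOX (-0.50 ± 0.22, but -0.31 without DOX replicate 1). These 3 did not overlap and did not share a direction.

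Vessel and matrix genes gave medians near 0 with single genes apart. Gja4, which encodes the arterial gap junction protein connexin 37, had 10.1 and 6.56 CPM in R+X and 5.95 and 4.19 CPM in DOX (0.72 ± 0.27, but 0.37 without R+X replicate 1). Sox18, an endothelial transcription factor, had 6.29 and 6.16 CPM in R+X and 9.68 and 9.25 CPM in DOX (-0.60 ± 0.21). The pan-endothelial Pecam1 overlapped at 25.0 and 23.9 CPM in R+X and 25.3 and 24.2 CPM in DOX, with a list median of -0.01. Among fibroblast and matrix genes Col12a1, a fibril-associated collagen, had 45.8 and 42.3 CPM in R+X and 20.9 and 28.4 CPM in DOX (0.84 ± 0.39). Col3a1, a fibrillar collagen, had 3231 and 4109 CPM in R+X and 4480 and 5736 CPM in DOX (-0.48 ± 0.23, but -0.29 without DOX replicate 2). The list median was -0.09, with 4 (15.4%) higher and 7 (26.9%) lower without overlap, against 15.3% and 13.5% of all genes tested.

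Neighbouring tissue collected with a tumour was compared by its markers. Summed over 22 skeletal muscle genes the level was 228.6 and 217.5 CPM in R+X and 328.9 and 201.5 CPM in DOX, and over 24 skin and hair genes 451 and 364 CPM in R+X and 439 and 322 CPM in DOX. Both sums overlapped between the groups. Tpm2 and Eno3 made up most of the muscle sum in these 4 libraries, and Krt14 most of the skin sum. Their lowest values over the 12 libraries were 108, 70.1 and 259 CPM. The mean log2 CPM of the muscle genes, which such genes dominate less, was 0.66 and 0.04 in R+X and -0.19 and -0.26 in DOX, without overlap. Muscle sums were 574 and 323 CPM in RP and 258 and 319 CPM in Ctrl, and 263 and 654 CPM in R+D and 265 and 216 CPM in DPD, so muscle genes differed more in those comparisons. The median of the muscle list was 0.36 in R+X minus DOX and -0.02 without R+X replicate 1. That of the skin list was -0.35, with 0 of 24 genes apart, against 15.3% higher and 13.5% lower of all genes tested. Over this list R+X replicate 1 exceeded R+X replicate 2 by a median of 2.96 log2 units, so the 0 does not show that the groups were alike. The skin median was -4.60 without R+X replicate 1 and 0.91 without DOX replicate 2. With the muscle score of each library as a covariate, the T cell median was 0.25, the interferon gamma median 0.31 and the red cell median -2.90. Cdh1, which encodes the epithelial adhesion protein E-cadherin, had 15.7 and 18.1 CPM in R+X and 10.4 and 14.0 CPM in DOX (0.47 ± 0.23, but 0.27 without DOX replicate 1).

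The difference between R+X and DOX was set against that between RP and Ctrl, where no drug was given, and that between R+D and DPD, where the prodrug was. Both use other libraries. The drug route changed within R+X minus DOX, whereas RP and Ctrl had no drug. The presence of DOX and its route therefore cannot be told apart in the difference from RP minus Ctrl. The test of the difference called 0 genes in each comparison (0%, smallest edgeR adjusted p = 0.998). At an unadjusted p under 0.05, 187 genes (0.958%) were higher and 537 (2.75%) lower in R+X minus DOX than in RP minus Ctrl, which made 724 (3.71%). Against R+D minus DPD it was 413 genes (2.12%), of which 1.14% were higher and 0.978% lower. DESeq2 called 6 and 3 genes. In the same edgeR fit RP against Ctrl had 3 genes that passed, all higher (0.0154%), and 4182 (21.4%) at an unadjusted p under 0.05, higher for 12% of all genes tested and lower for 9.38%. R+D against DPD had 450 (2.3%) at that p, and 0 that passed in edgeR.

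Of the 36 interferon gamma genes, 17 were among those 537 lower values. Their median was 0.37 in R+X minus DOX, 1.36 in RP minus Ctrl and 0.33 in R+D minus DPD. Gbp4 stood at 0.91 ± 0.36 in R+X minus DOX and 2.53 ± 0.38 in RP minus Ctrl, a difference of -1.62 ± 0.51. Cd274 stood at 0.44 ± 0.27 in R+X minus DOX and 1.52 ± 0.28 in RP minus Ctrl (-1.09 ± 0.38). Gja4, Serpina3g and Apol10b, the genes that passed in RP against Ctrl, had 0.72 ± 0.27, 0.50 ± 0.16 and 0.69 ± 0.18 in R+X minus DOX, and the difference from RP minus Ctrl was -1.57 ± 0.38 for Gja4, -0.93 ± 0.22 for Serpina3g and -1.0 ± 0.25 for Apol10b. All of these differences missed the threshold after adjustment (edgeR adjusted p = 0.998). T cell (1.37), cytotoxic effector (1.28), natural killer cell (1.59), neutrophil (1.28) and lymphatic endothelial (1.70) medians were likewise above 1 in RP minus Ctrl and between -0.16 and 0.41 in R+X minus DOX. Lists of neighbouring tissue were above their R+X values there as well, the muscle list with a median of 2.70 against 0.36 and the skin and hair list with 1.77 against -0.35. The mean log2 CPM of the skin and hair genes was -1.40 and 2.76 in RP and 1.11 and -1.32 in Ctrl, so RP replicate 2 held their high values. The part of these tissues in the immune medians was not tested.

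**Figure D5:**
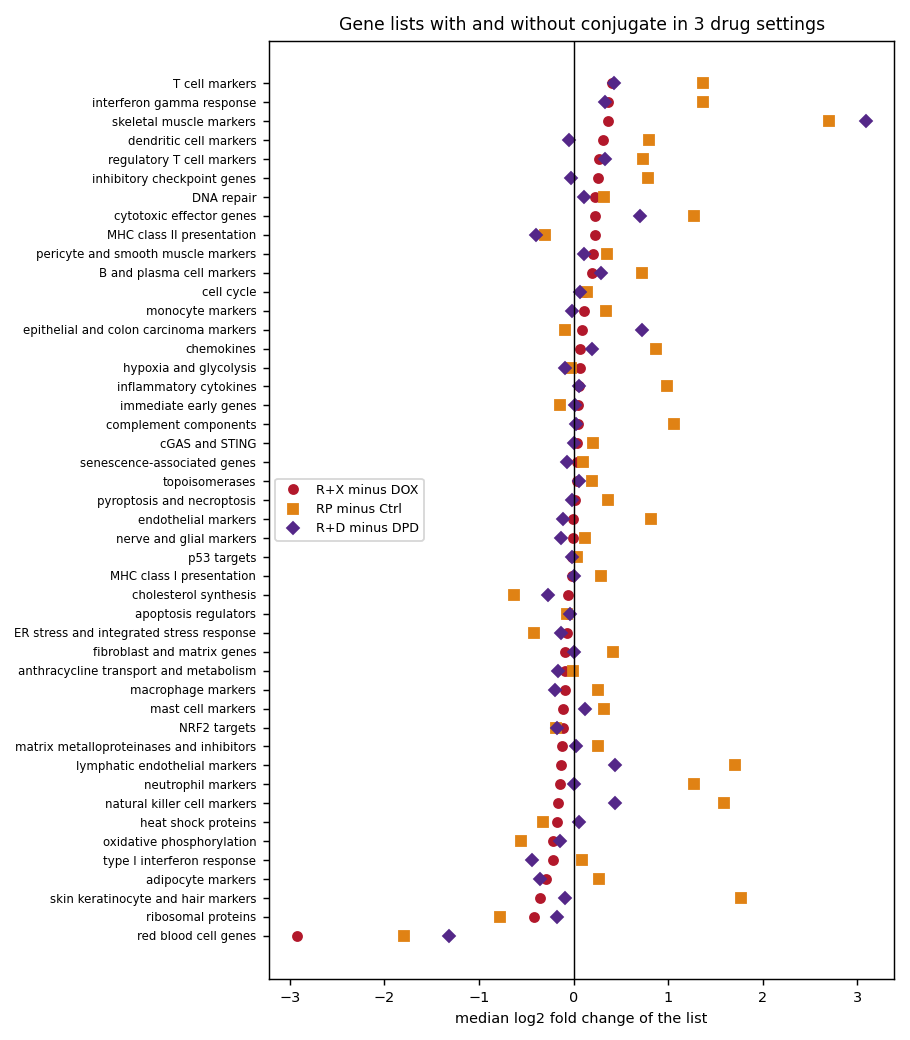
Median log2 fold change of each gene list for R+X minus DOX (circles), RP minus Ctrl (squares) and R+D minus DPD (diamonds). Most immune lists lie further right in RP minus Ctrl than in R+X minus DOX, while MHC class II lies further left; red cell genes are to the left of -1.3 in all 3.

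Across 14362 genes with a mean of at least 1 CPM, the fold changes of R+X minus DOX and RP minus Ctrl correlated at Spearman 0.69 (Pearson 0.54), and those of R+X minus DOX and R+D minus DPD at 0.31 (Pearson 0.16). The first value depended on 1 library. Computed from log2 CPM differences it was 0.69 with both DOX libraries, -0.02 without DOX replicate 1 and 0.72 without DOX replicate 2. It was 0.68 without Ctrl replicate 1 and 0.63 without Ctrl replicate 2. The value against R+D minus DPD was -0.04 without DOX replicate 1 and 0.34 without DOX replicate 2. Both values were thus near 0 when DOX replicate 1 was left out.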

How the data were processed

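RNA-seq of MC38 tumours gave 12 libraries in 6 groups of 2. Per the labels' protocols, RNA came from a TRIzol extraction and libraries from a NEBNext Ultra kit. The submitters' processing notes name HISAT2 2.1.0, StringTie 1.3.5, DESeq2 and GRCm38; the sources used here do not give each tool's role, the annotation or the strand setting. The authors deposited raw counts per gene as whole numbers in 43698 rows, and 12 of 12 per-library files equalled their column. Without a stated strand, overlapping and antisense genes cannot be told apart, and near-identical copies may share reads.

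Groups came from the agent label. Replicates 1 and 2 are names in order of listing and pair nothing. Since no label says that the 2 libraries of a group are separate mice, p-values reflect only the variation among these samples, part or all of which may be technical. With 2 against 2 libraries an exact permutation test cannot go below p = 0.333 (two-sided), so none was run.

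One edgeR 4.0.16 quasi-likelihood fit (R 4.3.3) held all 12 libraries, with TMM scaling and filterByExpr (19525 genes tested, 6 residual degrees of freedom, biological coefficient of variation 0.257). The threshold was a Benjamini-Hochberg adjusted p of 0.05; errors are standard errors. Tested on simulated counts for R+X against DOX (5 simulations, 19525 genes, each gene's spread shared by all groups), it called 13 of 94511 unchanged genes.

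The members and gene lists were chosen with earlier results of these data known. The 46 lists hold 927 genes, of which 921 were in the table and 874 were tested. They are described by counts and medians beside all genes, without a list test. Named genes were the 8 of smallest p in each direction with non-overlapping groups and at least 1 CPM, leaving out predicted genes and suffix copies, up to 3 of smallest p per list discussed, and a panel of 33 genes, of which 1 is not reported here. Other genes given were chosen after their values were seen, namely Bpgm, Slc4a1, Pecam1, the T cell receptor segments and the epithelial markers.

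Settings tried beside it were DESeq2 1.42.0, scaling by RLE, no filter on low counts, voom of limma 3.58.1, the 4 libraries alone, summed name copies, a muscle or skin score as covariate and each library left out. Fits without libraries of other groups and the globin sum were added after seeing the data. Coordinates and promoters are RefSeq's on GRCm38.p6. Gene lengths are from the GENCODE annotation.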

Additional observations from a re-analysis of the deposited data

Results flagged for a closer look

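For 22 differences in 21 of the 166 named genes, both R+X libraries lay on one side of both DOX libraries while the other conjugate contrast lay on the opposite side without overlap. Each was tested as a difference of log2 fold changes in edgeR: 0 passed (smallest adjusted p = 0.998), and 17 had an unadjusted p under 0.05. A choice by opposite direction over many genes returns some by chance. It was also made on the values then tested, which favours a small p, so the 17 are no separate support. Over all genes tested, 3.71% had an unadjusted p under 0.05 in edgeR against RP minus Ctrl and 2.12% against R+D minus DPD.

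Against RP minus Ctrl there were 10. Chil3, a myeloid chitinase-like protein, was higher in R+X than in DOX but lower in RP (11.0 and 15.4 CPM) than in Ctrl (18.6 and 27.5 CPM), a difference of 2.95. Cdh1 was the other gene higher in R+X, with a difference of 0.85. The rest were lower in R+X and higher in RP. Plac8, known from monocytes and lymphocytes, had 3.56 and 3.54 CPM in R+X and 5.49 and 4.60 CPM in DOX, against 17.8 and 12.9 CPM in RP and 4.53 and 5.01 CPM in Ctrl, a difference of -2.19 (unadjusted p = 9.11e-05). Sox18 differed by -1.42, Cd247, a T cell receptor signalling chain, by -1.59, and Itga2, an integrin of natural killer cells and platelets, by -2.37. Ncr1 differed by -3.27, the dendritic cell receptor Flt3 by -3.59 and the neutrophil chemokine Cxcl5 by -4.55, each at 1.07 CPM or less in every library of the 4 groups. The lymphatic factor Prox1 had 0 counts in both R+X and both Ctrl libraries, so its fitted -11.35 depends on the prior count and is no bound.

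Against R+D minus DPD there were 12. Chil3 had 5.51 and 8.26 CPM in R+D and 11.8 and 16.5 CPM in DPD, a difference of 3.18. Pygl differed by 0.97, Itgam by 1.08 and F10, coagulation factor X, by 0.86. Genes of antigen handling were among them, H2-Aa at 0.77, Cd74 at 0.71 and the protease Ctss at 0.62. Cnn1, a smooth muscle protein, differed by -1.55. The scarce genes Tox (3.69), Fcer1a (-4.21), Csf3 (-3.91) and Cdh17 (-4.40) had at most 0.459 CPM in any library of the 4 groups.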

How the results depend on the processing

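No paired analysis was possible because the labels number no replicates. The count of 0 genes higher became 1 with DESeq2 and ranged from 0 to 1 when 1 library of any group was left out; the 1 gene, without DOX replicate 2, was Xntrpc, which had 0 CPM in DOX replicate 1. The count of 0 lower became 2 with DESeq2 and ranged from 0 to 4, the 4 being Hba-a1, Hba-a2, Hbb-bs and Hbb-bt without DPD replicate 2 (edgeR adjusted p = 0.0458), a library outside the comparison that shares the spread. The test against RP minus Ctrl went to 6 genes with DESeq2 and ranged from 0 to 1 with libraries left out, that against R+D minus DPD to 3 and from 0 to 1. RLE scaling, no filter, limma-voom, summed copies and both covariates left all 4 counts at 0, as did the 4 libraries alone for the 2 counts they give. Of 166 named genes, 134 kept their sign wherever tested in 12 settings, not counting those without a library of another group, and 32 did not, 17 of them without DOX replicate 1 and 8 without DOX replicate 2. The 4 libraries alone tested only 153 of the 166. Unadjusted counts also moved, to 2387 higher without DOX replicate 2, against 342; a lone library is then assumed to vary like the other groups. With 2 libraries a group, 1.21% of genes changed 1.5-fold were called in simulated data.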
